A study of Mus musculus with 7 samples.

Results

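The genes that encode the main neuropeptide precursors of the mouse cortex, Sst, Npy, Vip, Cck, Crh, Tac1, Tac2, Cort, Adcyap1 and Pdyn, 10 in all, were taken by symbol from the read counts of each cortex library. All 10 were among the 23413 symbols counted, and all 10 were among the 15881 genes that passed the filter on low counts. The samples were cortex RNA from 13-month-old APP/PS1 mice, which carry the mutant human transgenes APPswe and PSEN1dE9 on a C57BL/6 background and are used as a model of Alzheimer's disease. From 6 months of age the mice were housed singly and ate either a control diet (CD, labelled SD, with 74% of its energy as carbohydrate, 10% as protein and 16% as fat) or a ketogenic diet (KD, less than 0.5% carbohydrate, 10% protein and 90% fat) for 7 months. There were 4 CD libraries and 3 KD libraries, 1 mouse each, with 29905345 to 36614954 counts in CD and 22272883 to 34028808 in KD. Mice of both groups carried the transgenes, and no wild-type library was analysed, so the comparison was between diets within the model and says nothing of the transgenes themselves.

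Neuropeptides are made as long precursors, cut and often amidated inside dense-core vesicles, and released at higher firing rates than the fast transmitters with which they share a cell. In cortex most of them mark inhibitory interneurons. Somatostatin is made by interneurons that contact distal dendrites, vasoactive intestinal peptide by interneurons that inhibit other interneurons, and neuropeptide Y by several interneuron classes including neurogliaform cells. Cholecystokinin is made by basket cells and also by many pyramidal cells, and PACAP, the product of Adcyap1, is largely a peptide of excitatory neurons. Several of these genes are textbook targets of CREB, the cAMP-responsive transcription factor, and the study asked whether KD changes synaptic plasticity, with CREB among the proteins it measured.

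The CREB binding element was therefore looked for in the promoter windows that RefSeq gives for these genes (mouse build GRCm38.p6, which shares its coordinates with mm10, 250 bases before to 50 after the start of transcription). A window was given for 9 of the 10 genes, and Crh had none. The full element, TGACGTCA, was in the window of Sst alone, and in 1.79% of all 32851 windows. Its half-site, TGACG on either strand, which the full element also contains, was in windows of 6 of the 9 genes, against 20.8% of all windows. The windows of Npy, Tac2 and Pdyn held neither. TATAAA, on either strand, was in windows of Vip and Adcyap1, and in 13.6% of all windows. The sites are shown because CREB is a factor the study followed. It did so as protein in hippocampus, where the phosphorylated form was higher in KD and the total level was unchanged. From the cortex RNA it also listed CREB signaling in neurons among 6 induced pathways. That pathway analysis was not repeated here. The libraries here are RNA of cortex and do not measure phosphorylation. Each line gives 30 bases on the gene's strand with the matched letters in capitals.

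Sst: cgcctccttggcTGACGTCAgagagagagt
Vip: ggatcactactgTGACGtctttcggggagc
Adcyap1: ggactaggatgcTGACGtcttttactgata
Cck: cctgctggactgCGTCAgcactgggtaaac
Tac1: gctctacaggctCGTCAcgcctgagataaa
Cort: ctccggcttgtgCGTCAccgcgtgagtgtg

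The Sst site lay at chr16:23890875-23890904, minus strand, and began 48 bases before the RefSeq start at 23890844. GENCODE M21, which gives the gene spans printed further on, begins Sst upstream of this, at 23890958, so that the site lies inside its Sst span. The Vip site was at chr10:5639127-5639156, plus strand, 79 bases before it, and that of Adcyap1 at chr17:93198914-93198943, plus strand, 91 bases before the first of its 2 annotated starts. The Cck site was at chr9:121495724-121495753, minus strand, 47 bases before the start, and that of Cort at chr4:149126764-149126793, minus strand, 18 bases before it. Tac1 held a half-site at chr6:7555006-7555035, plus strand, 43 bases before the RefSeq start at 7555061, and another 197 bases before that start. In GENCODE M21 Tac1 begins at 7554879, upstream of the nearer site, which lies inside that span. For Vip, Cck, Cort and Adcyap1 the start used here is also the start of the GENCODE span. These are letter matches in the reference and not evidence of binding in these mice.

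In mm10 the genes other than Sst span chr6:49822710-49829507 (Npy), chr10:5639218-5647617 (Vip), chr9:121489824-121495694 (Cck), chr3:19693401-19695396 (Crh), chr6:7554879-7565834 (Tac1), chr10:127724478-127731768 (Tac2), chr4:149125034-149126763 (Cort), chr17:93199017-93206537 (Adcyap1) and chr2:129686565-129699844 (Pdyn). All are annotated as protein-coding.

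The genes differed widely in level. CPM, the count of a gene scaled to a common library total, were divided by the length of the gene's merged exons, so that genes could be compared. Cck had the highest median over the 7 libraries, 110 CPM per kb, followed by Npy with 98.3 and Sst with 43.3. The ranges of these neighbours overlapped. Vip followed with 20.7 CPM per kb, and its range, 15.2 to 26.8, lay below that of Sst (37 to 63) and above that of Adcyap1 (4.27 to 7.17). The lower 6 genes, Adcyap1 (median 5.28), Tac1 (5.17), Cort (3.66), Crh (3.11), Pdyn (2.47) and Tac2 (2.38), overlapped each with the next and could not be ordered beyond their spread. The order depends on the exon lengths used, 3402 bases for Vip and 721 for Sst, and the annotation behind the counts is not known. In CPM without division by length, Vip (51.6 to 91.2) lay above Sst (26.7 to 45.4). Together the 10 genes took 0.0273% to 0.0401% of a library.

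**Figure D1:**
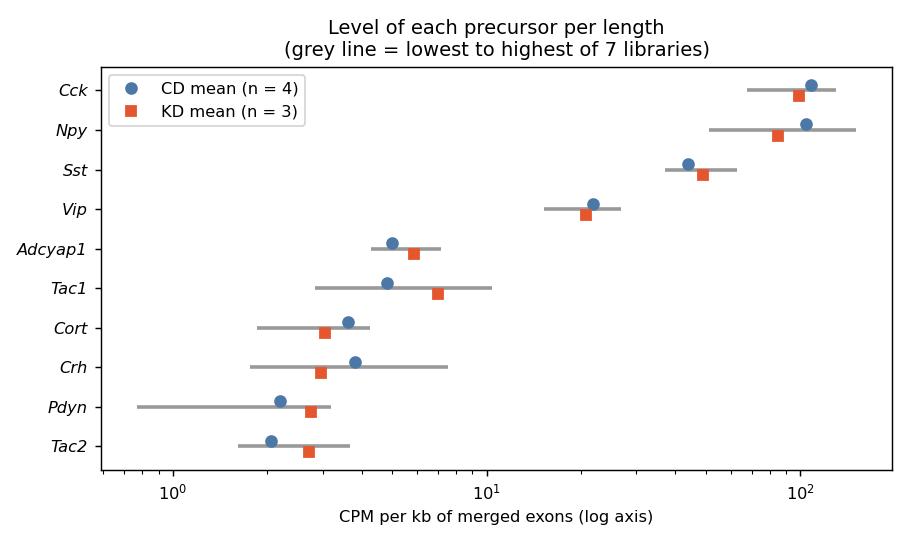
Level of each precursor in CPM per kb of merged exons (log axis). Grey lines run from the lowest to the highest of the 7 libraries, blue circles are CD means (n = 4) and red squares KD means (n = 3). Cck, Npy and Sst lie highest, Vip stands alone between them and the lower 6 genes, and for every gene both diet means lie within the range of the libraries.

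The precursors also varied more between mice than most genes. The biological coefficient of variation that edgeR estimates within the diets ran from 18.1% for Adcyap1 to 46.9% for Crh, and was above the median of all tested genes, 17.5%, for all 10. Their own median was 29.5%. From the lowest to the highest library the CPM differed by 1.68 times for Adcyap1, 1.7 for Sst and 1.77 for Vip, and by 4.29 times for Crh.

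The diets were compared in edgeR with its quasi-likelihood test. None of the 10 precursors passed it. At the study's threshold, a raw p no larger than 0.01, there were 0 precursors, beside 0.321% of the genes tested, and under 0.05 there were 0, beside 3.19%. These shares are 51 and 506 genes out of the 15881 tested. No precursor passed a Benjamini-Hochberg adjusted p-value of 0.05 in edgeR's quasi-likelihood test, and neither did any other gene (0% of those tested). With DESeq2 the precursors at an adjusted p under 0.05 were also 0. The CPM ranges of the 2 diets overlapped for each of the 10, where they did not for 4.2% of all tested genes. The fitted fold change was above 0 for 5 precursors and below 0 for 5, with a median log2 fold change of 0.04, beside 49% of all tested genes above 0 and a median of -0.00329. In bulk tissue a lower level can come from fewer cells of a type or from less RNA per cell, and these cannot be told apart.

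**Figure D2:**
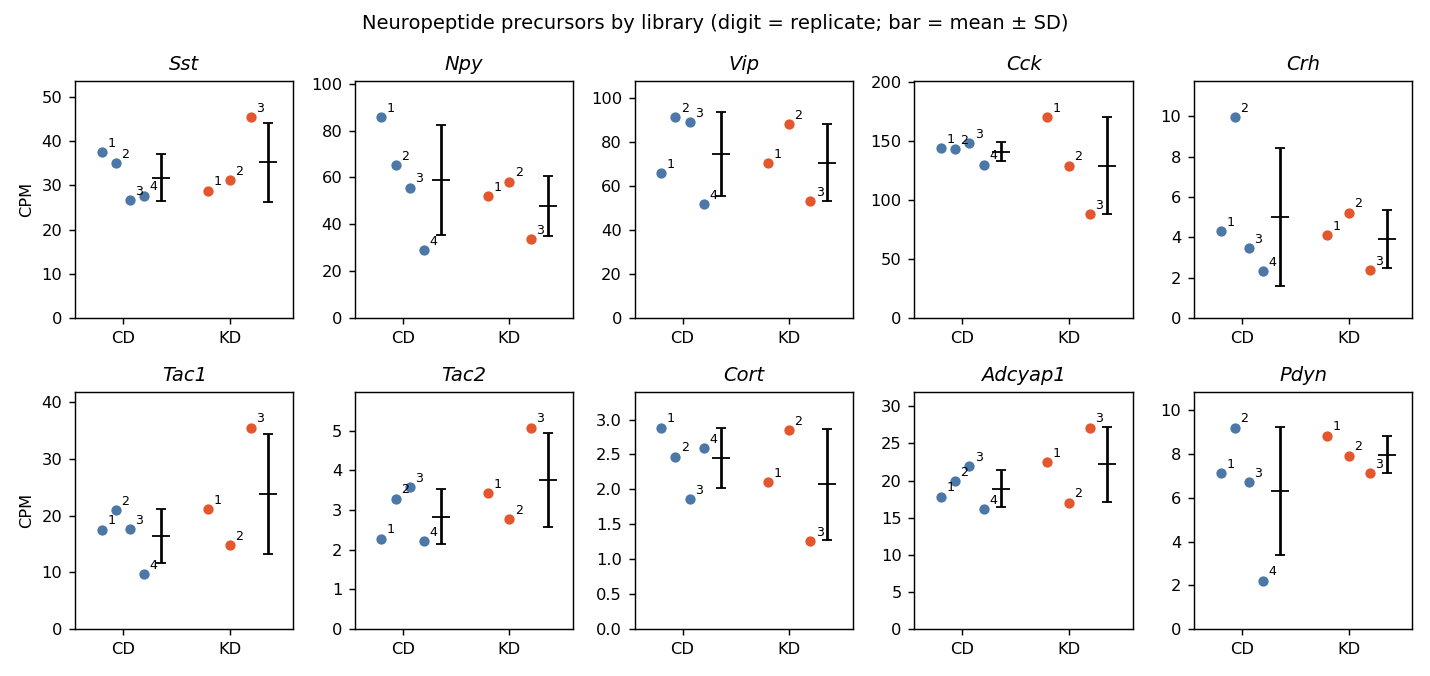
CPM of each precursor in each library, 4 CD (blue) and 3 KD (red), with the replicate number beside each point and the mean ± SD of the group in black. The groups overlap in all 10 panels, CD replicate 4 is the lowest library for 7 genes, and KD replicate 3 is the highest for Sst, Tac1, Tac2 and Adcyap1 and the lowest for Cck and Cort.

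Sst (chr16:23889573-23890958, minus strand) encodes somatostatin. There were 37.5, 35, 26.7 and 27.7 CPM in CD replicates 1 to 4, and 28.8, 31.2 and 45.4 CPM in KD replicates 1 to 3. KD replicate 3 was the highest of all libraries, and the other 2 KD libraries lay inside the CD range. The means were 31.7 ± 5.33 CPM (SD, n = 4) in CD and 35.2 ± 8.98 CPM (SD, n = 3) in KD. KD was higher by a log2 fold change of 0.15 (95% interval -0.28 to 0.58), with an adjusted p of 0.982 in edgeR's quasi-likelihood test. It was -0.06 without KD replicate 3 and 0.27 without KD replicate 1. The interval corresponds to a KD level of 0.825 to 1.49 times that of CD, and a change of 2 times in either direction was outside it.

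Cort encodes cortistatin, a relative of somatostatin that binds the same receptors. It had the lowest level in CPM of the 10, with 2.88, 2.47, 1.86 and 2.59 CPM in CD and 2.1, 2.85 and 1.26 CPM in KD. The lowest value, from 28 counts, was that of KD replicate 3, the library where Sst was highest. Its log2 fold change was -0.22 (95% interval -0.95 to 0.51), 0.04 without KD replicate 3 and -0.54 without KD replicate 2.

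Npy encodes neuropeptide Y, and had the largest ratio of highest to lowest library, 2.96, among the 4 most abundant precursors. It had 85.7, 65.3, 55.6 and 28.9 CPM in CD and 52, 58.2 and 33.6 CPM in KD. The lowest value was in CD replicate 4 and the next in KD replicate 3, 1 from each diet. The means were 58.9 ± 23.6 CPM (SD, n = 4) in CD and 47.9 ± 12.8 CPM (SD, n = 3) in KD, a log2 fold change of -0.29 (95% interval -1.09 to 0.51). Without CD replicate 4 it was -0.52 with a raw p of 0.0675 in edgeR's quasi-likelihood test, and without KD replicate 3 it was -0.08. It stayed below 0 without any 1 library, from -0.52 to -0.05.

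Vip encodes vasoactive intestinal peptide. Its values were 65.8, 91.2, 88.9 and 51.6 CPM in CD and 70.4, 87.9 and 53.2 CPM in KD, so that both diets covered nearly the same range. The log2 fold change, -0.07 (95% interval -0.63 to 0.49), was the closest to 0 of the 10. Its sign changed when single libraries were left out, from -0.27 without KD replicate 2 to 0.11 without KD replicate 3.

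Cck encodes cholecystokinin, the most abundant of these precursors. It had 144, 143, 148 and 130 CPM in CD and 170, 129 and 88 CPM in KD. The CD libraries were close together, at 141 ± 7.79 CPM (SD, n = 4), while the KD libraries held both the highest and the lowest value, at 129 ± 41 CPM (SD, n = 3). The log2 fold change was -0.12 (95% interval -0.57 to 0.34), 0.10 without KD replicate 3 and -0.37 without KD replicate 1. The wider spread in KD was not tested.

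Crh encodes corticotropin-releasing hormone, which in cortex is made by a subset of interneurons. It had 4.3, 9.96, 3.48 and 2.32 CPM in CD and 4.11, 5.23 and 2.38 CPM in KD. The highest value, in CD replicate 2, was followed by 5.23 CPM in KD, and without that library the log2 fold change moved from -0.35 (95% interval -1.52 to 0.82) to 0.24. Without KD replicate 2 it was -0.64. This was the least precise of the 10 comparisons, and a KD level of 0.349 to 1.77 times that of CD lay inside the interval.

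Tac1, which encodes substance P and neurokinin A, had the largest fitted difference. It had 17.5, 21, 17.6 and 9.67 CPM in CD and 21.1, 14.8 and 35.5 CPM in KD. KD replicate 3 lay well above all other libraries and CD replicate 4 below them, while the other 5 libraries were between 14.8 and 21.1 CPM with the diets mixed. The log2 fold change was 0.53 (95% interval -0.23 to 1.29), with a raw p of 0.148 in edgeR's quasi-likelihood test and p = 0.343 in a two-sided exact permutation test of the diet labels. Without KD replicate 3 it was 0.14, and without KD replicate 2 it was 0.77 with a raw p of 0.047 (adjusted p of 0.969) in edgeR's quasi-likelihood test. Without KD replicate 3 and CD replicate 4 it was -0.05.

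Tac2 encodes neurokinin B and was among the lowest precursors. It had 2.28, 3.28, 3.57 and 2.21 CPM in CD and 3.42, 2.76 and 5.07 CPM in KD. KD replicate 3 was again the highest, and the other KD libraries lay inside the CD range. Its fitted log2 fold change was 0.40 (95% interval -0.26 to 1.06), 0.14 without KD replicate 3 and 0.58 without KD replicate 2.

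Adcyap1 encodes PACAP, a peptide that raises cAMP through its receptor. It had 17.8, 19.9, 21.9 and 16.1 CPM in CD and 22.5, 17 and 27.1 CPM in KD. Of the KD libraries, replicates 1 and 3 lay above the CD range and replicate 2 inside it. The log2 fold change was 0.23 (95% interval -0.16 to 0.63), the narrowest interval of the 10. It was 0.08 without KD replicate 3, and 0.39 without KD replicate 2 with a raw p of 0.0489 (adjusted p of 0.969) in edgeR's quasi-likelihood test.

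Pdyn encodes prodynorphin, the precursor of the dynorphins. It had 7.12, 9.2, 6.71 and 2.21 CPM in CD and 8.85, 7.93 and 7.14 CPM in KD. The 3 KD values lay inside the range of CD replicates 1 to 3, and CD replicate 4 was well below all others with 81 counts. Pdyn had a log2 fold change of 0.34 (95% interval -0.60 to 1.28), 0.05 without CD replicate 4 and 0.59 without CD replicate 2.

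**Figure D3:**
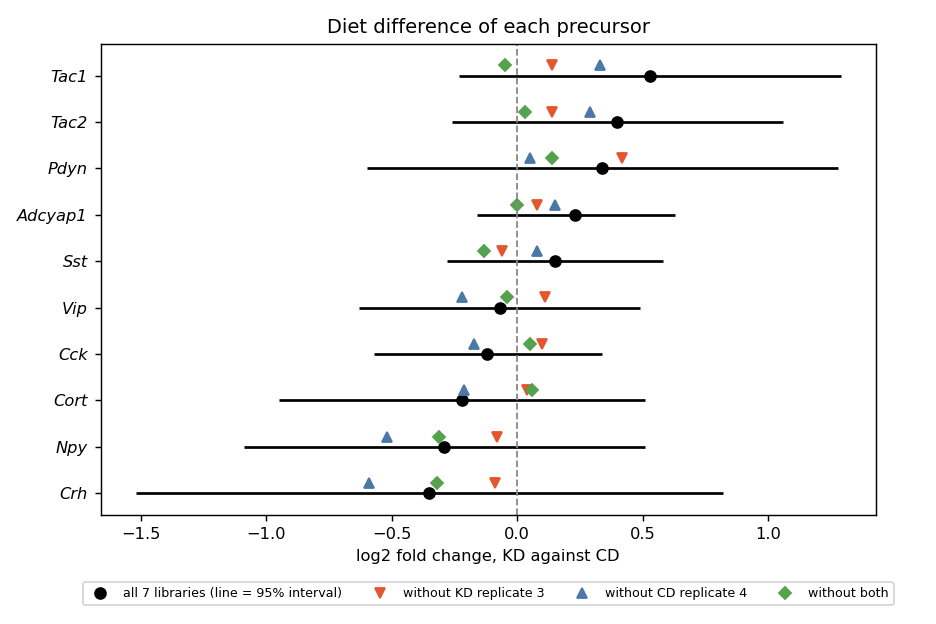
Log2 fold change of each precursor, KD against CD, with its 95% interval from all 7 libraries (black), and the same fold change without KD replicate 3 (red), without CD replicate 4 (blue) and without both (green). Every interval spans 0, and without both libraries the values lie between -0.32 and 0.14.

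The 2 libraries that held most of these extremes stood apart in more than the precursors. They were the 2 at the far end of the first principal component of all tested genes, at 46.7 (KD replicate 3) and 39.5 (CD replicate 4), with the others from -25.2 to 2.39. In KD replicate 3 the 8 markers of amygdala and hypothalamus (Baiap3, Gabrq, Irs4, Magel2, Lhx9, Otp, Sim1 and Isl1) summed to 104 CPM, against 3.51 and 3.88 CPM in the other KD libraries and 3.39 to 6.61 CPM in CD. Baiap3 alone was at 67.9 CPM there, while Otp was at the floor of 3 counts or fewer in every library. In CD replicate 4 the 6 olfactory bulb markers summed to 73.4 CPM, against 4.36 to 17.3 CPM in the other libraries, and the 5 thalamus markers to 225 CPM against 61.7 to 142 CPM. Slc17a6, a vesicular glutamate transporter, made up 167 of those 225 CPM, against 19.1 to 103 CPM in the other libraries, while Rora, at 34 CPM, lay inside their range of 20.6 to 40.9 CPM. The cortical excitatory list was lowest in the same library, at 1455 CPM, and next lowest in KD replicate 3, at 1695 CPM, against 1824 to 2077 CPM in the rest. Striatal markers, whose cells also make Tac1 and Pdyn, differed less, from 191 CPM in CD replicate 4 to 250 CPM in KD replicate 3. The sums of other lists were high in both libraries. Meningeal markers summed to 204 CPM in CD replicate 4 and 96.1 CPM in KD replicate 3, against 22.2 to 46.6 CPM in the rest. Dcn made up 126 and 73.7 CPM of these sums. In KD replicate 3 Col1a2 was at 14.7 CPM, below its 17.9 CPM in CD replicate 3. Col1a1 (3.05 CPM) and Lum (4.67 CPM) were there second to CD replicate 4. Hippocampal markers summed to 23.5 and 20.2 CPM, against 11.2 to 14.5 CPM in the rest. In KD replicate 3 Spink8 was at its highest (6.91 CPM), while the other hippocampal markers lay inside the range of the other libraries. The part of these differences in the precursors' values was not tested. Without both libraries the fold change was -0.13 for Sst, 0.06 for Cort, -0.31 for Npy, -0.04 for Vip, 0.05 for Cck, -0.32 for Crh, -0.05 for Tac1, 0.03 for Tac2, 0.00 for Adcyap1 and 0.14 for Pdyn. Those of Npy and Crh were close to their values from all 7 libraries, and the other 8 were nearer to 0 than theirs.

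**Figure D4:**
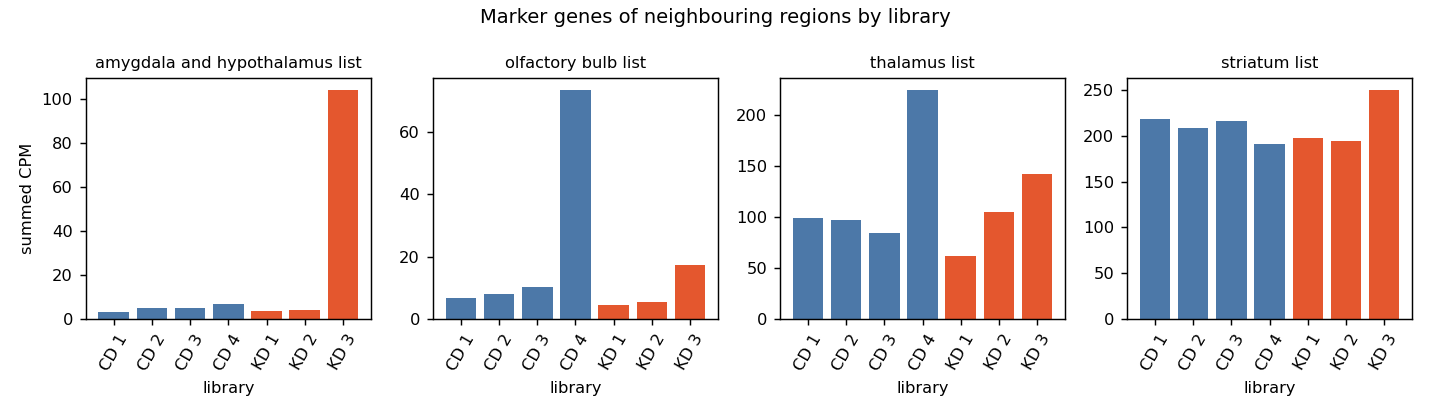
Summed CPM of 4 marker lists of neighbouring brain regions in each library, CD in blue and KD in red. The amygdala and hypothalamus list stands at 104 CPM in KD replicate 3 and at most 6.61 CPM elsewhere, and the olfactory bulb list at 73.4 CPM in CD replicate 4.

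Xist, which is transcribed in females, was at 7.95 log2 CPM or more in CD replicates 1 and 2 and KD replicates 1 and 2, and at 1.66 or less in CD replicates 3 and 4 and KD replicate 3. The labels give no sex, and both diets held libraries of either kind. The 3 lowest values of Crh were those of the 3 libraries with low Xist, which include the 2 described above, and the part of sex in them was not tested. With Xist as a covariate all 10 fold changes had the same sign as without it and none had a raw p under 0.05, the smallest being 0.177, for Tac1, in edgeR's quasi-likelihood test.

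Whether the precursors varied together among the 7 mice was examined for the 45 pairs, on TMM-scaled log2 CPM with exact permutation tests. None passed an adjusted p of 0.05, and 8 had a raw p under 0.05. The closest pair was Tac2 and Adcyap1, with Pearson's r = 0.957 (exact permutation p = 0.00139, adjusted p = 0.0625) and Spearman's rho = 0.929 (exact permutation p = 0.00675, adjusted p = 0.214). It was 0.852 without the 2 libraries farthest from the median of Tac2, 0.947 after the diet means were removed, and from 0.919 to 0.975 without any 1 library. Tac1 followed Adcyap1 with r = 0.918 (exact permutation p = 0.00456, adjusted p = 0.103; rho = 0.893, exact permutation p = 0.0123, adjusted p = 0.214), and 0.714 without the 2 farthest libraries.

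Cort ran the other way, with r = -0.855 against Adcyap1 (exact permutation p = 0.0121, adjusted p = 0.121) and r = -0.854 against Tac2 (exact permutation p = 0.0125, adjusted p = 0.121). Spearman's rho was -0.75 for both pairs (exact permutation p = 0.0663, adjusted p = 0.373), and without the 2 farthest libraries r was -0.639 and -0.822. Vip and Crh had r = 0.811 (exact permutation p = 0.0246, adjusted p = 0.185; rho = 0.857, exact permutation p = 0.0238, adjusted p = 0.214), and 0.487 without the 2 farthest libraries. When library totals alone were used for scaling, 4 pairs passed the adjusted threshold in the exact permutation test, Tac2 with Adcyap1 (r = 0.954), Tac1 with Adcyap1 (0.903), Tac2 with Cort (-0.914) and Cort with Adcyap1 (-0.926), each with an adjusted p of 0.0424. Sst and Npy, which share cells in cortex, had r = 0.128 (exact permutation p = 0.77, adjusted p = 0.941; rho = 0.321, exact permutation p = 0.498, adjusted p = 0.896). It was 0.924 without the 2 farthest libraries, and from -0.286 to 0.792 when 1 library was left out.

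**Figure D5:**
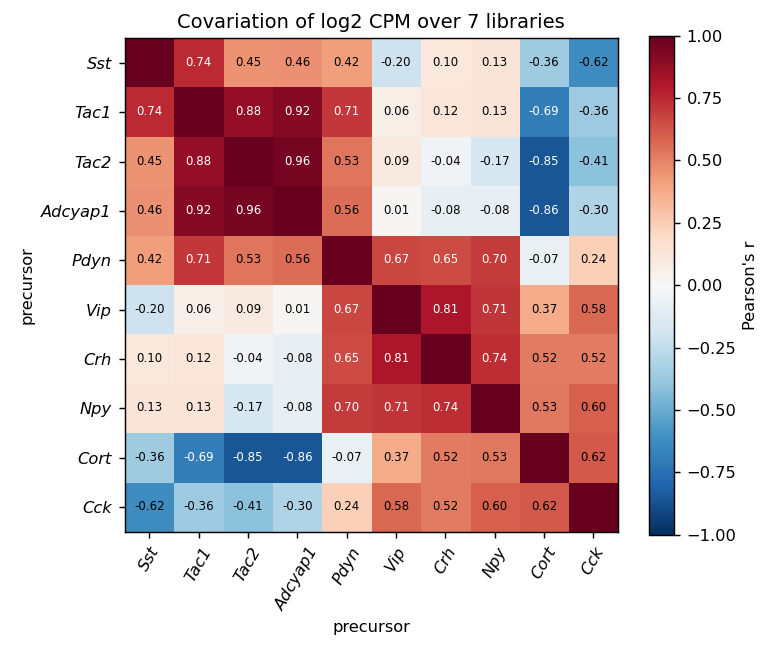
Pearson's r of TMM-scaled log2 CPM over the 7 libraries for each pair of precursors (blue negative, red positive). Tac1, Tac2 and Adcyap1 form the block with the highest values, and Cort is negative against all 3. None of the 45 pairs passed an adjusted p of 0.05.

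The tested genes whose log2 CPM followed each precursor most closely over the 7 libraries were also listed, among 13017 genes with a mean of at least 1 log2 CPM. They were the 3 highest of so many that they are a description only. They were U2af2, Eri3 and Polr2g for Sst (r from 0.961 to 0.976), Hhatl, Acsl6 and Armcx1 for Cort (0.975 to 0.994), Iars2, Prrt2 and Tubb4b for Npy (0.984 to 0.994) and Nrg3, Wapal and Ubtd2 for Vip (0.983 to 0.99). For Cck they were Hvcn1, 2810025M15Rik and Chm (0.98 to 0.999), and for Crh Pde12, Arpc3 and Ppm1a (0.986 to 0.994). Mrps22, 0610043K17Rik and Stx7 followed Tac1 (0.973 to 0.986), and Tmed8, Atl1 and 4933412O06Rik followed Tac2 (0.975 to 0.979). Hspa1b, a heat shock gene, Mapk1ip1l and Mapre1 followed Adcyap1 (0.964 to 0.992), and Stim2, Vti1b and Ube2e2 followed Pdyn (0.981 to 0.99). None was another precursor.

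Of the 19 receptors for these peptides, 18 were tested, 10 with a fitted fold change above 0 and 8 below, with a median log2 fold change of 0.08. No receptor passed a raw p of 0.01, and 1 had a raw p under 0.05, Tacr1, the receptor of substance P. It had 0.655, 0.936, 1.49 and 0.874 CPM in CD and 0.684, 1.2 and 11 CPM in KD, a log2 fold change of 2.10, and -0.03 without KD replicate 3. The most abundant receptor was Adcyap1r1, the PACAP receptor, with 185 ± 47.6 CPM (SD, n = 4) in CD and 181 ± 38.8 CPM (SD, n = 3) in KD. Cckbr, the cholecystokinin receptor of the brain, was next with 41 ± 8.62 CPM (SD, n = 4) and 44.1 ± 3.59 CPM (SD, n = 3). Neither Adcyap1r1 (log2 fold change -0.02, 95% interval -0.45 to 0.41) nor Cckbr (0.11, -0.31 to 0.54) passed the test.

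None of the 9 genes that process precursors passed a raw p of 0.05. Cpe, the carboxypeptidase that trims cut peptides, had a log2 fold change of 0.11 (95% interval -0.10 to 0.33), and Pcsk2, a convertase that cuts them, one of -0.02 (-0.38 to 0.34). Of the 10 dense-core vesicle genes 0 passed, with fold changes of -0.18 for Chgb, a granin, and -0.03 for Cadps, a vesicle priming factor. Cpe lay between 1298 and 1658 CPM in the 7 libraries and Cadps between 467 and 512 CPM, while Chgb spread from 402 CPM in KD replicate 1 to 732 CPM in CD replicate 4.

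Among the 10 genes that end peptide signals, 1 passed the raw threshold of 0.01, which 0.321% of all tested genes passed. It was Mme, which encodes neprilysin, a membrane peptidase that cuts substance P, somatostatin and amyloid peptides. It had 8.12, 9.9, 10 and 12 CPM in CD and 6.12, 6.35 and 6.47 CPM in KD, with no overlap between the diets, as for 4.2% of all tested genes. Its log2 fold change was -0.65 (SE 0.15), with a raw p of 0.00248 and an adjusted p of 0.979 in edgeR's quasi-likelihood test, so it did not pass over all genes. The exact permutation test gave p = 0.0571, where 0.0286 is the smallest possible with 4 against 3. Its fold change was -0.66 without KD replicate 3 and -0.57 without CD replicate 4. Ece1 (-0.11) and Nln (0.18), the most abundant peptidases of the list, did not pass.

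Other neuropeptide precursors were examined as well. Of 17 listed, 9 were tested, 5 above 0 and 4 below, and 0 had a raw p under 0.05. Penk, the enkephalin precursor, had 48.6, 35.7, 28.7 and 11.9 CPM in CD and 32.3, 29.2 and 125 CPM in KD. KD replicate 3 was the highest and CD replicate 4 the lowest, as for Tac1. Its log2 fold change was 0.98, and -0.01 without KD replicate 3. Trh, the precursor of thyrotropin-releasing hormone, had 44.1 CPM in KD replicate 3, 10.1 CPM in CD replicate 4 and at most 1.83 CPM in the other libraries.

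Genes of the neurons that make the peptides were examined in the same way. Of 25 interneuron genes 2 had a raw p under 0.05, and 0 passed the threshold of 0.01. Gad1, which makes GABA, had 508, 533, 471 and 681 CPM in CD and 399, 406 and 454 CPM in KD, with a log2 fold change of -0.37 (95% interval -0.65 to -0.10, adjusted p of 0.979 in edgeR's quasi-likelihood test). Sox6, a transcription factor of the somatostatin and parvalbumin lineages, had a log2 fold change of 0.34 (95% interval 0.07 to 0.60, adjusted p of 0.979 in edgeR's quasi-likelihood test). Summed over the list, interneuron genes were at 2160 to 2693 CPM in CD and 1958 to 2300 CPM in KD. Cnr1, the cannabinoid receptor of cholecystokinin basket cells, had a fold change of -0.01. Of the 10 excitatory neuron genes 0 had a raw p under 0.05, among them Camk2a, a synaptic kinase (0.28, 95% interval -0.12 to 0.67), and Slc17a7, a vesicular glutamate transporter (0.08, -0.23 to 0.40). Of 13 genes for CREB, its co-factors and activity-induced genes, 11 had a fitted fold change above 0 and 2 below. Of all tested genes 49% were above 0. The median of the 13 was 0.15, and 0 had a raw p under 0.05. Some of the 11 were close to 0, such as Crtc3 (0.00) and Crtc1 (0.06). Fos, Arc, Nr4a1 and Egr1 were each highest in CD replicate 2 and KD replicate 2, so the directions of the 13 are not independent. Creb1 itself had a log2 fold change of 0.02 (95% interval -0.16 to 0.20), and Arc, an activity-induced gene, one of 0.60 (-0.61 to 1.80). These are RNA levels in cortex, and they do not bear on the CREB phosphorylation that the study measured in hippocampus. Sst, the precursor with the full CREB element, was at 0.15, and the 5 with a half-site were at -0.07 (Vip), 0.23 (Adcyap1), -0.12 (Cck), 0.53 (Tac1) and -0.22 (Cort). Those whose windows held neither were at -0.29 (Npy), 0.40 (Tac2) and 0.34 (Pdyn), and Crh, with no window, at -0.35. A relation of the sites to the fold changes was not tested.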

How the data were processed

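Total RNA of mouse cortex was sequenced from 7 mice (stranded total RNA libraries, 50-bp paired-end reads, 10 mg of tissue). The authors aligned the reads to mm10 with STAR and deposited raw counts per gene symbol (HTSeq counting within STAR), without normalization or pooling. Versions, annotation and strand setting are not given in the sources used here. GENCODE M21, of the same genome, gave positions and exon lengths for 92.8% of symbols. It lists no gene that overlaps a precursor. Diets came from the labels, 1 mouse per library.

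From the counts, KD was compared with CD in edgeR 4.0.16 (R 4.3.3): filterByExpr, TMM factors (0.9783 to 1.038), glmQLFit with robust=TRUE, glmQLFTest, no covariate, Benjamini-Hochberg over 15881 genes. CPM in the text are counts over the library total. Log2 CPM used a prior count of 2. Alternatives were RLE or no scaling, a filter of 1 count, the likelihood-ratio test, DESeq2 1.42.0, Xist as a covariate, a replicate block, and leaving out libraries. The procedure was tested on simulated data. In edgeR the p-values set each difference against the spread between these mice, estimated with information shared across genes. The exact permutation tests used the values of the genes in question alone.

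The precursors and gene lists were chosen with earlier results of these data known. Named were all 10 precursors, from each list of peptide, neuron or CREB genes those whose raw p did not exceed 0.05 and otherwise the 2 with the highest mean CPM, and for each precursor the 3 genes with the highest r. The lists of neighbouring regions and other cell types were outside this rule. Baiap3, Otp, Slc17a6, Rora, Dcn, Col1a1, Col1a2, Lum and Spink8 were named from them after their values were seen. Crtc1, Crtc3, Fos, Nr4a1 and Egr1 of the CREB list, and Reln and Lamp5 of the interneuron list, were also named after their values were seen.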

Additional observations from a re-analysis of the deposited data

Results flagged for a closer look

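In the 4 CD libraries, 29 values on the log2 scale were put through Dixon's test, which sets the gap between the extreme library and its neighbour over the whole range, and 4 passed, where chance gives about 1 in 20. The values come from the same 4 libraries and are not independent, so their number cannot be judged against that rate. None of the 10 precursors passed. CD replicate 4 stood apart in the summed CPM of the peptide removal genes (277 against 222 to 227, gap over range 0.903 in log2), of the interneuron genes (2693 against 2160 to 2189, 0.941) and of the thalamus markers (225 against 84.2 to 98.9, 0.837). The interneuron genes did not all follow their sum. Gad1 (681 CPM against 471 to 533) and Reln (306 against 125 to 172) were high in CD replicate 4. Lamp5 was low there (65.5 against 157 to 191), and Npy and Vip were at their lowest. CD replicate 3 stood apart in the oligodendrocyte markers (924 against 3068 to 3675, 0.869).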

How the results depend on the processing

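No precursor passed an adjusted p of 0.05 under any of the 15 alternatives. Of the 150 precursor fold changes under them 138 kept their direction and their side of the raw threshold of 0.01, and 11 changed sign. Leaving out CD replicate 4 and KD replicate 3 together, chosen after seeing the data, gave -0.128 for Sst, 0.0538 for Cck, -0.0533 for Tac1 and 0.0575 for Cort. Across the fits that left out 1 replicate the values that changed sign ran from -0.0603 to 0.27 for Sst, -0.27 to 0.107 for Vip, -0.37 to 0.102 for Cck, -0.64 to 0.242 for Crh and -0.54 to 0.0381 for Cort. In the same fits 0 to 2 precursors had a raw p under 0.05, Tac1 and Adcyap1 without KD replicate 2. The median of the precursors, 0.0414, ran from -0.0603 to 0.228 in them, and was -0.0845 with the replicate block. The genes at a raw p of at most 0.01, 51 over all genes, ran from 19 to 211, and were 208 when Xist was a covariate, 132 in DESeq2 and 103 in the likelihood-ratio test. At an adjusted p under 0.05 there was 1 gene with the likelihood-ratio test and 1 with Xist. The number of precursor pairs past an adjusted p of 0.05 in the exact permutation test was 4 with library size alone and 0 otherwise. The cause was not tested. Same-numbered libraries deviated from their diet means with correlations of 0.251, 0.195 and 0.098, and the labels do not pair them. With the replicate block over replicates 1 to 3, 182 genes and 1 precursor, Npy (-0.544), had a raw p of at most 0.01, and Npy was also the 1 precursor with a raw p under 0.05. Counts of the scarcest precursors, 28 to 101 for Cort, limit their precision.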
